A study of Mus musculus with 6 samples.

Results

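The 7 beta-tubulin genes Tubb2a, Tubb2b, Tubb3, Tubb4a, Tubb4b, Tubb5 and Tubb6 were followed in RNA sequencing of mouse colon organoids. They were selected by exact gene symbol from the deposited table of 29940 genes. A repeated symbol was to be settled by the mean over the 6 samples, the measured value in the rule, but each symbol had 1 row; the family itself was picked with results of these data known, so its agreement in direction is no independent evidence. Organoids are hollow bodies of epithelium grown in a gel, here started from large-intestinal crypts of C57BL/6J mice, a common inbred strain. They were cultured for 2 days and then kept for 24 hours with tumour necrosis factor alpha (TNF, 3 samples) or without an addition (Ctrl, 3 samples). TNF is a cytokine released during inflammation, and its dose is not stated in the labels. The labels name no genetic change in either group and do not say whether samples within a group stem from different cultures or mice. The p-values therefore set the difference between groups against the spread of these samples, which can be technical variation.

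Microtubules are hollow polymers of paired alpha-tubulin and beta-tubulin, and they carry vesicles, separate chromosomes and hold the columnar shape of epithelial cells. Mammals have several beta-tubulin genes, whose proteins are nearly alike along most of their length and differ mainly in an acidic tail at the carboxyl end, where enzymes add or remove glutamate and other groups. Tubb5 and Tubb4b are the widely expressed isotypes, Tubb2a and Tubb2b are abundant in brain, Tubb4a is known from neurons and myelinating glia, Tubb3 is a classical neuronal marker, and Tubb6 is a more divergent isotype found in many tissues. Cells also lower tubulin mRNA when free tubulin is plentiful, through the factor TTC5, which reads the first residues of the newly made protein.

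The coding ends of 6 of the genes are shown because they hold the tail by which isotypes are told apart. They were read from GENCODE M21 transcripts on GRCm38, are the last 63 coding bases on the gene's own strand, and have the stop codon in capitals.
Tubb2a: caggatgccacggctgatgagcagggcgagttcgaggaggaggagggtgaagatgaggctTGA
Tubb2b: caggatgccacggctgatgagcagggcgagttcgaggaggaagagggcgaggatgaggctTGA
Tubb3: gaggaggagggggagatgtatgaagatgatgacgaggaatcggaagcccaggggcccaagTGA
Tubb4a: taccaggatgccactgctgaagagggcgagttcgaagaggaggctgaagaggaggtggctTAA
Tubb4b: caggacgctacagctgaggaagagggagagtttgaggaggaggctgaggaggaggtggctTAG
Tubb5: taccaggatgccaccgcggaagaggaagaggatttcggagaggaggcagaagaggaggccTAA
These stretches lie at chr13:34074468-34074530 (minus strand) for Tubb2a, chr13:34127471-34127533 (minus strand) for Tubb2b, chr8:123421620-123421682 (plus strand) for Tubb3, chr17:57080690-57080752 (minus strand) for Tubb4a, chr2:25222308-25222370 (minus strand) for Tubb4b and chr17:35834982-35835044 (minus strand) for Tubb5. Counted position by position without gaps, Tubb2a and Tubb2b differed at 3 of the 63 bases, Tubb4a and Tubb4b at 15, and Tubb3 differed from each of the other 5 at 35 to 37. The coding starts came in 5 spellings among these 6 genes, ATGAGGGAGATC in Tubb3 and Tubb4b, ATGCGCGAGATC in Tubb2a, ATGCGAGAGATC in Tubb2b, ATGCGGGAAATC in Tubb4a and ATGAGGGAAATC in Tubb5, and all 5 encode the same residues at the site that TTC5 reads.

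Over the whole coding sequence, Tubb2a and Tubb2b were 96.5% identical, and the other 20 pairs were 80.2% to 86.0% identical. Of all stretches of 150 bases in the Tubb2a transcript, 27.9% also occurred in a transcript of another gene, Tubb2b or the pseudogene Tubb2a-ps2, and for Tubb2b it was 20.1%. For Tubb4b, 16.8% also occurred in the pseudogene Tubb4b-ps1, while Tubb3, Tubb4a, Tubb5 and Tubb6 shared no such stretch with any annotated transcript of another gene. The treatment of reads that match several genes is not stated in the labels. The split between Tubb2a and Tubb2b, and between Tubb4b and its pseudogene, is uncertain. Tubb4b-ps1 was listed at 10.1 ± 0.281 FPKM in TNF and 8.33 ± 0.648 FPKM in Ctrl (SD, n = 3 each), far below Tubb4b. Exons of Tubb4b also overlap those of Fam166a on the opposite strand.

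With TNF, 6 of the 7 beta-tubulin genes rose, with the largest fold changes in Tubb4a and Tubb3 and the smallest in the abundant Tubb4b and Tubb5. Tubb4a had 3.26 times and Tubb3 3.07 times the Ctrl level, Tubb2b 1.67 times and Tubb2a 1.58 times, Tubb4b 1.2 times and Tubb5 1.14 times, as ratios of group means. Tubb6 had 1.05 times the Ctrl level and did not pass the test. In RNA from whole organoids, more cells of a type and more RNA per cell cannot be told apart. Levels are given in FPKM, which divide the fragments of a gene by its length and by the size of the library, so that genes can be compared with each other. The test was limma on log2(FPKM + 1), two-sided, with Benjamini-Hochberg adjustment over the 12350 genes that averaged 1 FPKM or more and a threshold of 0.05, and all 7 genes passed that filter. Of all tested genes 24% were called, 12.9% higher and 11.1% lower in TNF, and their median log2 change was -0.00, beside a median of 0.63 over the 7 beta-tubulins. All 3 TNF values lay above all 3 Ctrl values in the 6 genes that rose, as they did in 21% of the tested genes, and 41.4% of the tested genes had no overlap in either direction.

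**Figure D1:**
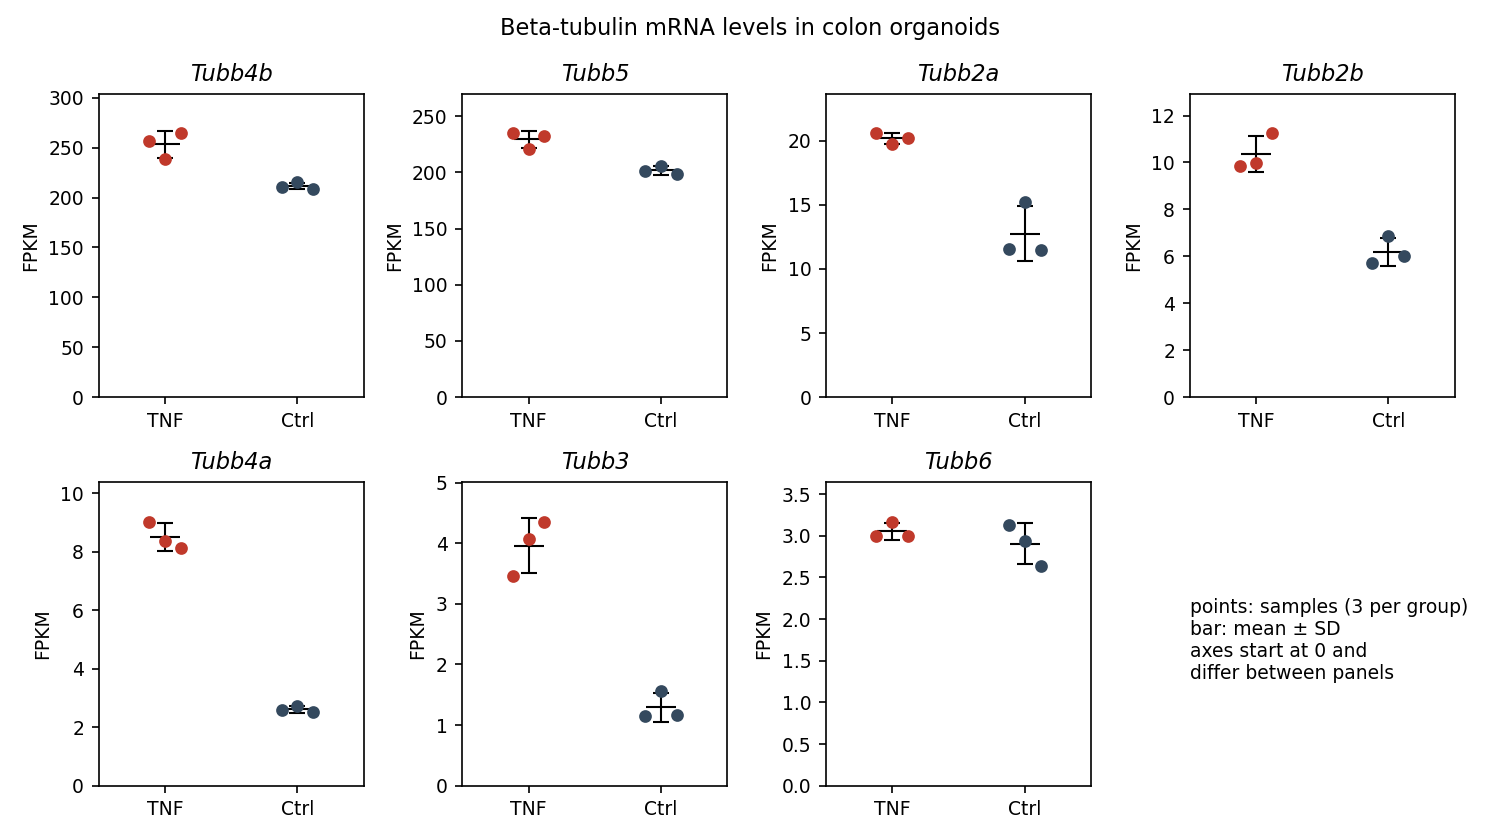
FPKM of each beta-tubulin gene (vertical axes, each from 0) in the 3 TNF and the 3 Ctrl samples, with points for samples and bars for the mean ± SD. The TNF points lie above all Ctrl points in every panel but that of Tubb6.

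Tubb4b and Tubb5, the widely expressed isotypes, supplied most of the beta-tubulin mRNA in both groups. Tubb4b (ENSMUSG00000036752, chromosome 2, 25222160 to 25224702 in GRCm38, minus strand) was at 256.7, 238.8 and 264.6 FPKM in the TNF samples, against 210.6, 215.4 and 209.0 FPKM in the Ctrl samples. Its groups did not overlap, and the lowest TNF value was 1.11 times the highest Ctrl value. Its log2 change was 0.26 (SE 0.05, limma adjusted p = 0.00821). Without both Ctrl 1 and TNF 3 it did not pass (adjusted p = 0.119; 0.00667 to 0.119 over 15 alternative settings).

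Tubb5 (ENSMUSG00000001525, chromosome 17, 35833921 to 35838306, minus strand) was at 234.9, 220.7 and 232.1 FPKM with TNF, against 201.2, 205.7 and 198.2 FPKM in Ctrl. TNF 2 was the lowest treated sample for both Tubb4b and Tubb5, and still lay above every Ctrl sample. The log2 change of Tubb5 was 0.18 (SE 0.04, limma adjusted p = 0.0195). That call was lost without TNF 1, TNF 3, Ctrl 1 or Ctrl 3 (adjusted p = 0.0523 to 0.071) and held without TNF 2 or Ctrl 2; over 15 alternative settings the adjusted p was 0.018 to 0.19.

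Tubb4a, known from neurons and myelinating glia, had the largest fold change of the family, though its difference of 5.9 FPKM was small beside the 41.7 FPKM of Tubb4b. It (ENSMUSG00000062591, chromosome 17, 57080066 to 57087782, minus strand) was at 9.03, 8.35 and 8.14 FPKM in TNF, against 2.58, 2.74 and 2.51 FPKM in Ctrl. The values stood for about 565, 550 and 584 reads in TNF and about 175, 180 and 167 reads in Ctrl, and the lowest TNF value was 2.97 times the highest Ctrl value. The log2 change was 1.40 (SE 0.06, limma adjusted p = 5.58e-06), and 0.575% of the tested genes had a larger one. The added 1 shrinks the fold change of genes with few FPKM, and with a pseudocount of 0.1 in place of 1 the log2 change was 1.67.

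Tubb3, the neuronal marker, was the scarcest isotype in Ctrl. It (ENSMUSG00000062380, chromosome 8, 123411424 to 123422015, plus strand) was at 3.46, 4.07 and 4.36 FPKM in TNF, against 1.14, 1.57 and 1.17 FPKM in Ctrl. These values stood for about 181, 225 and 262 reads in TNF and about 65, 86 and 65 reads in Ctrl, and the groups did not overlap. The log2 change was 1.11 (SE 0.10, limma adjusted p = 0.000234), and 1.55 with a pseudocount of 0.1. The ratio of Tubb4a to Tubb3 was 2.18 ± 0.386 in TNF and 2.05 ± 0.266 in Ctrl (mean ± SD, n = 3 each), a difference within the spread of the samples.

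Tubb2b and Tubb2a, the brain-enriched pair of neighbours on chromosome 13, lie 48.7 kb apart. Tubb2b (ENSMUSG00000045136, 34126748 to 34130466, minus strand) was at 9.83, 9.98 and 11.2 FPKM in TNF, against 5.71, 6.85 and 6.01 FPKM in Ctrl (log2 change 0.66, SE 0.08, limma adjusted p = 7e-04). Tubb2a (ENSMUSG00000058672, 34074274 to 34078007, minus strand) was at 20.6, 19.7 and 20.2 FPKM in TNF, against 11.5, 15.2 and 11.5 FPKM in Ctrl (log2 change 0.63, SE 0.10, limma adjusted p = 0.00294). Ctrl 2 was the highest Ctrl sample for both genes, and neither gene overlapped between groups. The ratio of Tubb2a to Tubb2b was 1.96 ± 0.152 in TNF and 2.05 ± 0.157 in Ctrl (SD, n = 3 each), and the groups overlapped.

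Tubb6 (ENSMUSG00000001473, chromosome 18, 67390717 to 67402749, plus strand) was at 2.99, 3.17 and 3.00 FPKM in TNF, against 3.13, 2.94 and 2.64 FPKM in Ctrl. The groups overlapped, and the log2 change was 0.06 with a 95% interval of -0.10 to 0.22 (limma adjusted p = 0.607). Of the tested genes, 36.7% had a larger change. Ratios to Tubb6 were also taken within each sample. Because Tubb6 differed little between the groups in these same data, they restate the rises of Tubb4a and Tubb3 and are no separate support. The ratio of Tubb4a to Tubb6 was 3.02, 2.64 and 2.72 in TNF, against 0.823, 0.932 and 0.951 in Ctrl, and the ratio of Tubb3 to Tubb6 was 1.16, 1.28 and 1.45 in TNF, against 0.365, 0.533 and 0.443 in Ctrl.

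The order of the levels differed between the groups at its lower end. With TNF it ran from Tubb4b through Tubb5, Tubb2a, Tubb2b, Tubb4a and Tubb3 to Tubb6, with no overlap between neighbours in that order. In Ctrl the first 4 places were the same, followed by Tubb6, Tubb4a and Tubb3. In Ctrl the ranges of Tubb6 and Tubb4a overlapped over the 3 samples, although Tubb6 was the higher in each single sample.

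Summed over the 7 genes, beta-tubulin mRNA was 528.6 ± 20.8 FPKM in TNF and 439.1 ± 10.0 FPKM in Ctrl (SD, n = 3 each), with no overlap. Of the difference of 89.5 FPKM, Tubb4b made up 46.6% and Tubb5 30.7%. Most of the added mRNA thus came from the isotypes with the smallest fold changes among those that rose. The other 5 genes together held 8.54%, 8.98% and 8.63% of the sum in the TNF samples, against 5.53%, 6.50% and 5.52% in the Ctrl samples. Tubb4a held 1.61 ± 0.0993% of the sum in TNF and 0.594 ± 0.0133% in Ctrl, and Tubb3 held 0.750 ± 0.0922% in TNF and 0.294 ± 0.0469% in Ctrl. The share of Tubb5 was lower in TNF, at 43.4 ± 0.585% against 45.9 ± 0.249% in Ctrl, while that of Tubb4b overlapped, at 47.9 ± 0.697% in TNF and 48.2 ± 0.344% in Ctrl. Sums and shares were not tested, since their members were chosen with results known.

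**Figure D2:**
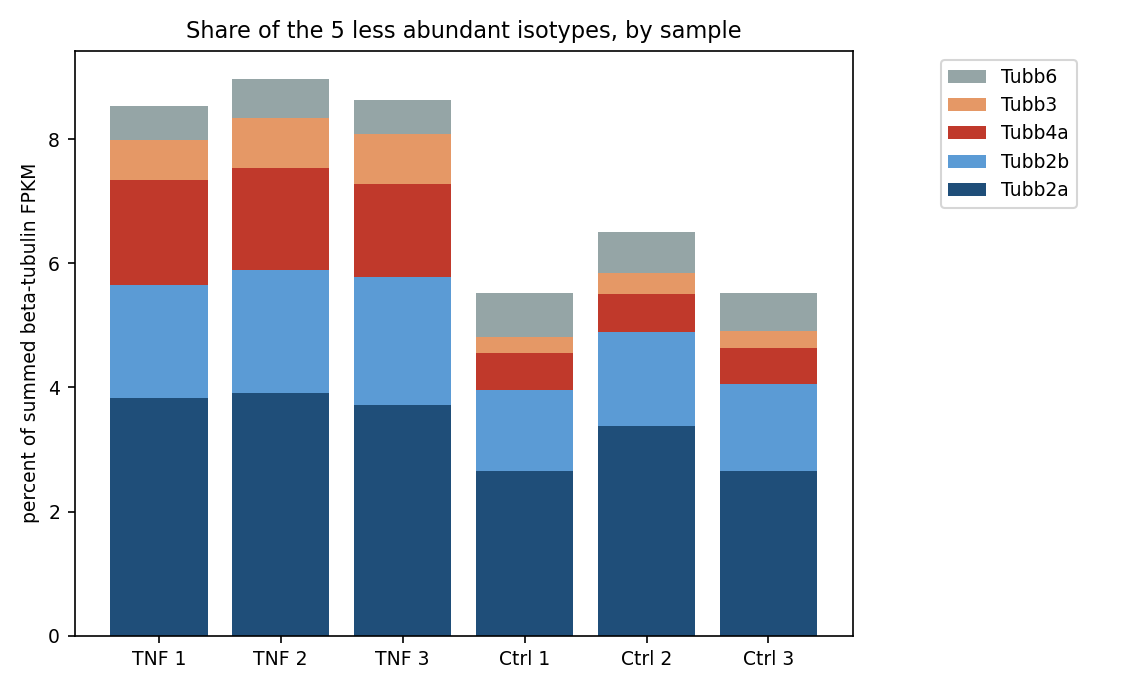
Percent of the summed FPKM of the 7 beta-tubulin genes (vertical axis, from 0) held by the 5 less abundant ones, stacked by gene, in each TNF and Ctrl sample. The stacks reach 8.54% to 8.98% in TNF and 5.52% to 6.50% in Ctrl, and the Tubb4a and Tubb3 layers are thicker in all 3 TNF samples.

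The 300 bases around the start of 3 of these genes are shown, those of the largest rises, Tubb4a and Tubb3, and of the most abundant isotype, Tubb4b. They run from 250 bases before to 50 bases after the RefSeq transcript start (GRCm38.p6), in the direction of transcription, with motif matches on either strand in capitals.
Tubb4a: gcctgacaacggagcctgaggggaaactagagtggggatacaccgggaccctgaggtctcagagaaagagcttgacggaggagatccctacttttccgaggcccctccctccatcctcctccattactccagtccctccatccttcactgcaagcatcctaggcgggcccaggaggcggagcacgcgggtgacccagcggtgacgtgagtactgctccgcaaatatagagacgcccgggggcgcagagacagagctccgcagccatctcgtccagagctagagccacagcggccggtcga
Tubb3: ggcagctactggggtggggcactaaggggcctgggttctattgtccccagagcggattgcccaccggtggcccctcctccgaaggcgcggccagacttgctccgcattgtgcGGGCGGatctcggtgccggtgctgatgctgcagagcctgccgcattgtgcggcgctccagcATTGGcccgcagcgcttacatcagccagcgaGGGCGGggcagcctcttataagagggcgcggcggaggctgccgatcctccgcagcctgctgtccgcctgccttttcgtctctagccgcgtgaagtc
Tubb4b: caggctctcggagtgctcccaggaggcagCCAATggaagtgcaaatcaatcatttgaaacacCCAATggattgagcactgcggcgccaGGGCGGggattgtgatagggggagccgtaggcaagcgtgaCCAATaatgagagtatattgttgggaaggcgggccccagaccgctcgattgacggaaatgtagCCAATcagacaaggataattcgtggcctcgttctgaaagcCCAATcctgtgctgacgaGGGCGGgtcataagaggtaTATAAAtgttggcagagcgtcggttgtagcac
They lie at chr17:57087551-57087850 (minus strand), chr8:123411303-123411602 (plus strand) and chr2:25224653-25224952 (minus strand). Promoter entries were found for 5 of the genes, these 3 and those of Tubb2a and Tubb5. On both strands, 5 motifs were searched: the NF-κB consensus, the AP-1 site TGANTCA, the TATA box TATAAA, the CCAAT box CCAAT and the GC box GGGCGG, of which no match overlapped another. The Tubb4b window held 5 CCAAT boxes, Tubb5 held 2, Tubb3 held 1 and Tubb4a and Tubb2a held 0, where 37.4% of 32851 promoters held at least 1. The GC box was in all of these windows but that of Tubb4a (35.7% of all promoters), and TATAAA was in those of Tubb2a, 29 bases before the start, and Tubb4b, after the start (13.6% of all promoters). None of the 5 windows held the NF-κB consensus (8.46% of all promoters) or TGANTCA (7.81%), which says only that these letters are not in these windows. In GENCODE M21, Tubb4a and Tubb3 begin at 57087782 and 123411424, before the RefSeq start. Part of the 250 bases before that start thus lies within these genes, and their motif counts are not fully comparable with those of Tubb4b.

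Alpha-tubulin genes, the partners of beta-tubulin in the dimer, were also mostly higher. Of 5 tested, 4 rose and 1 fell (median log2 change 0.36), and 2 of 7 found in the table were under 1 FPKM. Among all tested genes, 12.9% were called higher and 11.1% lower. Tuba1a, abundant in the nervous system, rose to 49.9 ± 1.95 FPKM in TNF, against 30.5 ± 0.959 FPKM in Ctrl (SD, n = 3 each; log2 change 0.69, limma adjusted p = 4.82e-05). Tuba4a rose to 57.1 ± 2.86 FPKM in TNF, against 44.3 ± 2.13 in Ctrl, and Tuba1c to 170.9 ± 11.8 FPKM in TNF, against 130.2 ± 9.75 in Ctrl. Tuba1b, the most abundant, had a log2 change of 0.21 (limma adjusted p = 0.0379), and the intestinal Tubal3 fell to 1.46 ± 0.0977 FPKM in TNF, against 2.35 ± 0.206 in Ctrl. The sequences of Tuba1a, Tuba1b and Tuba1c were not compared here, so how well reads tell them apart is not known. The ratio of summed beta-tubulin to summed alpha-tubulin FPKM was 0.890, 0.916 and 0.922 in TNF and 0.940, 0.906 and 0.975 in Ctrl, and the groups overlapped.

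Most other genes of the microtubule system did not pass, where 24% of all tested genes were called, 12.9% higher and 11.1% lower. Gamma-tubulin and the gamma-ring proteins nucleate microtubules. Of 11 tested gamma-, delta- and epsilon-tubulins and gamma-ring proteins, 1 rose, Tubg1, to 15.0 ± 0.618 FPKM in TNF, against 12.7 ± 0.296 in Ctrl. Tubgcp4 (log2 change 0.27, limma adjusted p = 0.0501), Mzt1 (-0.16) and Mzt2 (-0.16) did not pass. Of 21 tubulin folding genes, 1 fell, the cofactor gene Tbcc (log2 change -0.25, limma adjusted p = 0.0224), and the chaperonin subunit genes Tcp1 (0.14) and Cct4 (-0.12) and the GTPase gene Arl2 (-0.17) did not pass. None of the 4 genes of tubulin mRNA autoregulation was called by limma, with log2 changes of -0.17 for Cnot11, -0.01 for Cnot1 and 0.02 for Ttc5; 0 of 4 had an unadjusted p under 0.05.

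Of 13 tested enzymes that modify tubulin, 2 rose, where 12.9% of all tested genes were called higher. Ttll7, which adds glutamate chains to the tail of beta-tubulin, rose to 3.28 ± 0.225 FPKM in TNF, against 1.89 ± 0.278 in Ctrl (log2 change 0.57, limma adjusted p = 0.00318), and Ttll1, another glutamylase gene, had a log2 change of 0.37 (limma adjusted p = 0.0435). The alpha-tubulin acetylase gene Atat1 (log2 change 0.31, limma adjusted p = 0.087) and the deacetylase gene Sirt2 (0.10) did not pass.

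Of 20 tested genes of microtubule-associated and plus-end proteins, 3 rose and 2 fell, beside 12.9% higher and 11.1% lower over all tested genes. Map1a, whose protein binds microtubules of neurons, rose to 1.56 ± 0.185 FPKM in TNF, against 0.542 ± 0.0832 in Ctrl (2.88 times). It passed the filter of 1 FPKM only through its TNF values, so its call is no support for a rise of the list, while Mapt (1.17 FPKM in TNF and 0.559 in Ctrl) and Map7d2 (0.690 FPKM in TNF and 0.216 in Ctrl) stayed below the filter. Clasp1, whose protein stabilizes growing ends, had a log2 change of 0.33, and Macf1, whose protein links microtubules to actin, 0.16 (limma adjusted p = 0.0471). Mapre2 and Mtus1 fell, with log2 changes of -0.32 and -0.21. Of 10 tested destabilizing and severing genes, 1 rose and 1 fell: the stathmin family gene Stmn3, known from neurons, rose to 3.997 ± 0.605 FPKM in TNF, against 1.13 ± 0.472 in Ctrl (3.55 times; limma adjusted p = 0.0012), and the severing gene Spast had a log2 change of -0.20. Katna1 (0.09) and Mcrs1 (0.06) did not pass. The median log2 changes of these 6 lists lay between -0.05 and 0.07.

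**Figure D3:**
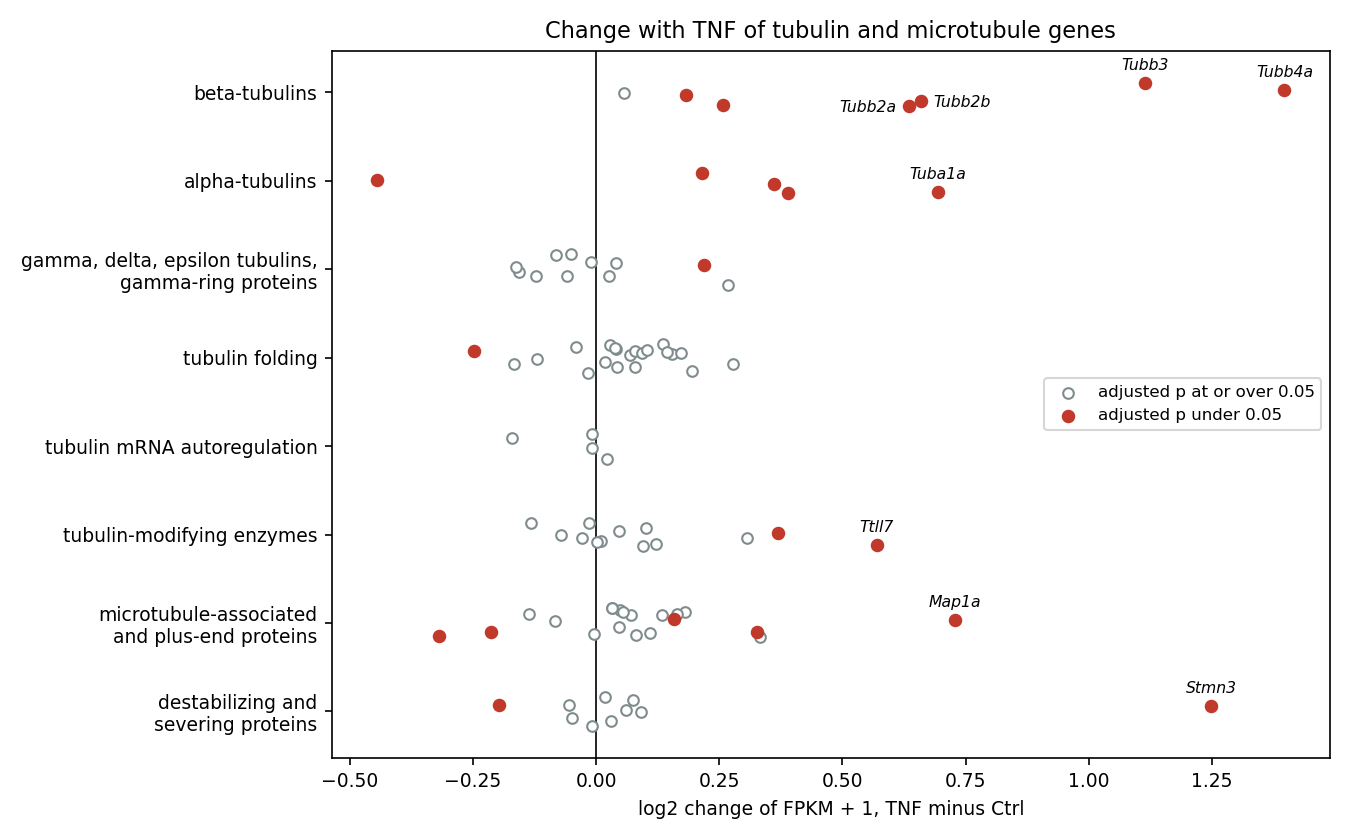
Log2 change of FPKM + 1, TNF minus Ctrl (horizontal axis), of each tested gene of the beta-tubulin list and of 7 further lists (rows); filled points have an adjusted p under 0.05 and the vertical scatter within a row carries no value. Tubb4a, Stmn3 and Tubb3 lie farthest right, at 1.40, 1.25 and 1.11, while most points of the lower 6 rows are open and near 0.

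Marker genes of neurons and glia moved in the same direction as Tubb4a, Tubb3, Tubb2a and Tubb2b. Of 5 tested neuronal markers, 4 rose (Snap25, Nefl, Nefm and Gap43) and Ret did not pass, where 12.9% of all tested genes were called higher. Gap43, at 1.82 FPKM in TNF and 0.572 in Ctrl, passed the filter only through its TNF values, so its call gives that count no support. The summed level of the 11 in the table was 16.3 to 18.2 FPKM in TNF, against 6.03 to 8.56 FPKM in Ctrl. The synaptic gene Snap25 was at 4.32 ± 0.230 FPKM in TNF and 1.51 ± 0.241 in Ctrl, and the neurofilament gene Nefl at 4.55 ± 0.711 FPKM in TNF and 1.52 ± 0.214 in Ctrl (SD, n = 3 each). The defining neuronal markers Elavl4, Prph, Rbfox3, Syt1 and Elavl3 were all under 1 FPKM in the mean. Among these, Rbfox3 was at 0.341, 0.293 and 0.340 FPKM in TNF, against 0.125, 0.0998 and 0.0766 FPKM in Ctrl, and Elavl3 and Syt1 averaged 0.480 and 0.446 FPKM in TNF, against 0.229 and 0.170 FPKM in Ctrl. Stmn2, also under the filter, averaged 0.835 FPKM in TNF and 0.193 FPKM in Ctrl. These 4 genes were higher in every TNF sample than in every Ctrl sample, and their low levels were not tested. The groups overlapped for Prph, which averaged 0.139 FPKM in TNF and 0.0787 FPKM in Ctrl, and for Elavl4. Elavl4 was at 0.0846, 0.192 and 0.0887 FPKM in TNF, against 0.0818, 0.0647 and 0.143 FPKM in Ctrl.

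All 3 tested glial markers rose (Gfap, S100b and Entpd2), where 12.9% of all tested genes were called higher. The summed level of the 7 in the list was 27.7 to 29.1 FPKM in TNF, against 11.0 to 12.8 FPKM in Ctrl. Gfap was at 7.60 ± 0.884 FPKM in TNF and 1.76 ± 0.368 in Ctrl, and the calcium-binding protein gene S100b at 4.02 ± 0.351 FPKM in TNF and 1.10 ± 0.336 in Ctrl. The glial transcription factor gene Sox10 was at 0.332, 0.309 and 0.244 FPKM in TNF, against 0.0750, 0.111 and 0.0218 FPKM in Ctrl, and Foxd3 was listed at 0 in the 3 TNF samples. No marker of either list was at 0 in all 6 samples. Whether neural or glial cells were present, and whether they had a part in the beta-tubulin changes, was not tested.

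**Figure D4:**
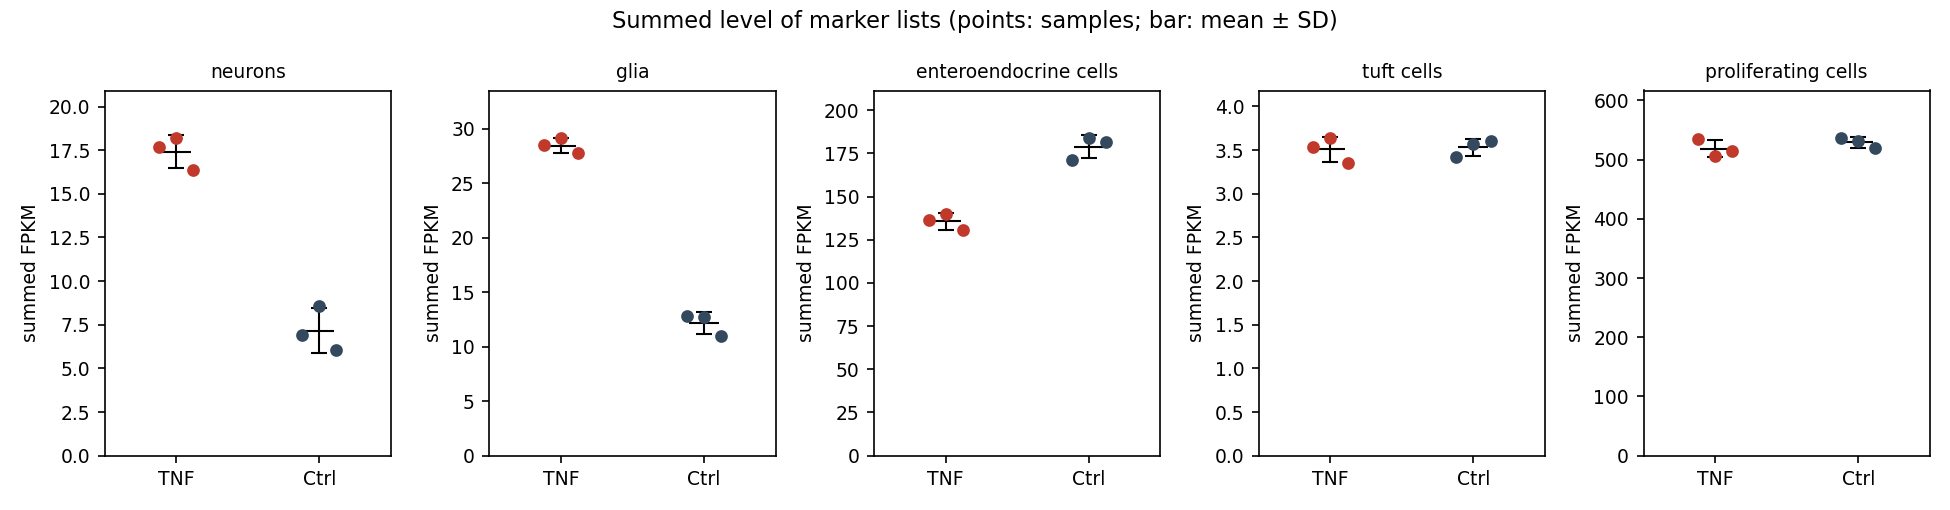
Summed FPKM of marker lists (vertical axes, each from 0) for neurons, glia, enteroendocrine cells, tuft cells and proliferating cells in the 3 TNF and the 3 Ctrl samples, with the mean ± SD. The neuronal and glial sums are higher and the enteroendocrine sum is lower in all TNF samples, while the tuft cell and proliferation sums overlap.

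The other marker lists did not show that pattern. Enteroendocrine markers, which belong to epithelial cells that also express neuronal genes, gave 3 rises (Scg2, Scg3 and Scg5, genes of secretory granule proteins) and 5 falls (Cck, Chgb, Gcg, Nts and Pyy) out of 12 tested. They summed to 130.6 to 140.1 FPKM in TNF, against 171.4 to 183.8 FPKM in Ctrl. Tuft cell markers, from cells rich in microtubules, were all 10 under 1 FPKM in the mean and summed to 3.35 to 3.64 FPKM in TNF, against 3.42 to 3.60 FPKM in Ctrl. Multiciliated cell markers summed to 0.900 to 1.53 FPKM in TNF, against 0.577 to 0.982 FPKM in Ctrl, and endothelial markers to 0.852 to 1.03 FPKM in TNF, against 0.270 to 0.907 FPKM in Ctrl, with no tested gene in either list. Of 14 proliferation markers, from cells that build mitotic spindles, Bub1 rose, Plk1 fell and 12 did not pass, with Mki67 at 96.2 ± 5.92 FPKM in TNF and 94.3 ± 2.13 FPKM in Ctrl.

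Of 9 tested epithelial markers, the keratin genes Krt8, Krt18 and Krt19 rose and Car1 and Cdx2 fell. Of 10 goblet cell markers, Agr2, Atoh1 and Tff3 rose and Fcgbp, Klk1 and Retnlb fell, and of 10 colonocyte markers, Ceacam20 and Guca2a rose and 6 fell. Among 6 tested fibroblast and smooth muscle markers Thy1 rose and Col1a1 and Col3a1 fell. The filter shaped that count, since Thy1 (2.60 FPKM in TNF and 0.682 in Ctrl) passed it only through TNF, and Col1a2 (0.412 FPKM in TNF and 1.48 in Ctrl) stayed below it. Among 5 leukocyte and macrophage markers Cd14 rose. The epithelial gene Epcam was at 409.6 ± 16.0 FPKM in TNF and 451.2 ± 15.6 FPKM in Ctrl. Leukocyte and macrophage markers summed to 33.3 to 57.6 FPKM in TNF, against 29.2 to 49.0 FPKM in Ctrl, with the lowest sum of each group in TNF 3 and Ctrl 1. Without these samples Tubb4a, Tubb3, Tubb2b and Tubb2a still passed, with log2 changes of 1.42, 1.01, 0.56 and 0.57, while Tubb4b and Tubb5 did not. The 8 NF-κB response genes used as a check of the treatment all rose (1, Icam1, passed the filter only through TNF), Nfkbia to 151.0 ± 7.12 FPKM in TNF, against 27.1 ± 2.10 FPKM in Ctrl, and Tnfaip3 to 25.0 ± 0.639 FPKM in TNF, against 4.50 ± 0.0921 FPKM in Ctrl.

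The genes whose pattern over the 6 samples was most like that of Tubb4a were found by the root mean square difference between profiles of log2(FPKM + 1), each centred on its own mean. They were Ascl2, a transcription factor gene of crypt base cells, Nod2, which encodes a sensor of bacterial cell wall fragments, Irf1, an interferon regulatory factor gene, Atp1b2, a sodium pump subunit gene, and Tmem238l, with differences of 0.04, 0.06, 0.06, 0.07 and 0.07. Ascl2 was at 12.05, 11.7 and 10.4 FPKM in TNF, against 3.81, 4.07 and 3.52 FPKM in Ctrl, so that it shared both the size of the step and the low TNF 3 value. Nod2, at 3.44 FPKM in TNF and 0.78 FPKM in Ctrl, passed the filter of 1 FPKM only through its TNF values, so that filter partly set its place here. The genes nearest to Tubb5 were Eif3c, Tff3, Nudc, Pdap1 and Ciapin1, with differences of 0.01 to 0.02 and log2 changes of 0.16 to 0.21. The order of such lists rests on 6 samples in 2 groups and describes these values only.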

How the data were processed

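RNA sequencing covered 3 TNF and 3 Ctrl samples. The tools named per the submitters' processing notes are cutadapt (version 1.9) and FastQC, with GRCm38 as genome build. Aligner, counting program, strandedness and annotation release are not given in the sources used here. Deposited by the authors was 1 table of 29940 genes. Its name calls the values normalized counts, but each value times the exonic length of its listed transcripts summed to 0.959 to 0.964 times 1000000000 per library, so the deposited values were treated as FPKM. In genes of at least 300 bases with 1 exon, low values piled up at 1 and 2 times the same step, taken as 1 read, which gave 28100000 to 32200000 assigned reads per library and the approximate read numbers; counts were not recovered for all genes, so no count test was run. Intervals are 95% confidence intervals of the log2 change and rest on the spread between samples.

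Gene positions came from GENCODE M21 (GRCm38) and promoters from RefSeq (GRCm38.p6). Genes averaging 1 FPKM or more were tested with limma (version 3.58.1, R 4.3.3) on log2(FPKM + 1) with a mean-dependent prior variance; the procedure was tested on simulated data. The members and lists were chosen with earlier results of these data known. Named were all members, up to 4 genes of the smallest p per microtubule list (the 2 most abundant where none was called), the 5 profiles nearest to Tubb4a and to Tubb5, and Nfkbia, Tnfaip3 and Mki67; Cnot11 and Cnot1 are the 2 of autoregulation, and Tuba1b, Ttc5, Macf1, Tubb4b-ps1 and the markers named were chosen after their values were seen. Alternatives changed the pseudocount (0.1 or 5), the filter (none or 5 FPKM), the scaling, the prior, the block and the samples included. Some marker genes are not reported here and were left out of the marker counts and sums.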

Additional observations from a re-analysis of the deposited data

How the results depend on the processing

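Tubb4a, Tubb3, Tubb2b and Tubb2a kept their direction and their call under every alternative in which they were tested (15 each, and 14 for Tubb3, which is removed by a filter at 5 FPKM), and Tubb6 was called in none of 14. Log2 changes over these alternatives were 0.83 to 1.67 for Tubb4a, 0.51 to 1.55 for Tubb3, 0.46 to 0.73 for Tubb2b and 0.51 to 0.76 for Tubb2a, with the extremes of Tubb4a and Tubb3 set by the pseudocount. For Tubb5, leaving out 1 sample gave log2 changes of 0.165 to 0.21 (limma adjusted p = 0.0243 to 0.071). Without both Ctrl 1 and TNF 3, which leaves 2 samples in each group, Tubb5 had 0.172 and Tubb4b 0.222 and neither passed, the genes called over the whole table numbered 821 higher and 596 lower, against 1595 and 1374 with all samples, and 4 members were called higher. Leaving out 1 sample gave 913 to 1177 lower genes, the fewest without Ctrl 1, and 1149 to 1430 higher genes. The difference in summed beta-tubulin was 47.8 FPKM without Tubb4b, by construction, and 82.0 to 101 FPKM when 1 sample was left out; the difference in the share of Tubb4b ranged from -0.677 to 0.0068 percentage points. Quantile normalization and equal medians moved the median log2 change of all genes to -0.014 and -0.009 and changed no member's call, but the balance of calls over the whole table was not stable: 1480 genes were higher and 1543 lower with quantile normalization, 1519 and 1451 with equal medians, and 1734 and 1024 with no filter.

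Samples with the same replicate number did not deviate together (correlations of deviations across genes -0.004, -0.101 and 0.005). These correlations do not show whether such samples share a culture, a mouse or a batch. With the replicate block, 1256 genes were higher and 1004 lower. The log2 change of Tubb5 then stood at 0.183 and missed the threshold (limma adjusted p = 0.0722).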

Other observations

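Values of tested genes within 150 kb of each member were also read, an addition made after the data were seen. Over all tested genes 24% were called. Tubb4a had 12 such neighbours, of which 3 rose and 2 fell. Among them were C3, the complement component gene, 116.2 kb away, at 76.3 ± 5.74 FPKM in TNF and 3.73 ± 0.270 FPKM in Ctrl, and Tnfsf9, which encodes a TNF family ligand, 17.5 kb away, at 4.08 ± 0.766 FPKM in TNF and 2.25 ± 0.136 FPKM in Ctrl (SD, n = 3 each). Slc25a23, at 20.2 kb, and Acer1, at 97.9 kb, fell, with log2 changes of -0.76 and -0.76 (limma adjusted p = 0.000323 and 0.000417). Of 14 tested neighbours of Tubb5, 2 rose, 2 fell and 10 were not called. The early response gene Ier3, 10998 bases away, rose to 49.3 ± 4.46 FPKM in TNF, against 20.6 ± 2.49 FPKM in Ctrl, while Flot1, at 1.1 kb, and Nrm, at 23.0 kb, fell with log2 changes of -0.44 and -0.46; Ddr1, at 129.3 kb, had a log2 change of 0.27 (limma adjusted p = 0.00621). Of 7 tested neighbours of Tubb3, 1 rose, Gas8, with a log2 change of 0.27 (limma adjusted p = 0.0244). Tubb2a and Tubb2b had 7 tested neighbours each, of which 4 rose and 0 fell; each counts the other, and the remaining 3 are shared (Serpinb6a, Nqo2 and Slc22a23, with log2 changes of 0.18 to 0.27). Tubb4b had 19, of which 2 rose, 1 fell and 16 were not called. Rnf208, counted as a rise at 1.67 FPKM in TNF and 0.718 FPKM in Ctrl, passed the filter of 1 FPKM only through its TNF values. Its call gives that count no support. Tubb6 had 4, of which 1 rose and 1 fell.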
